A study of Danio rerio with 13 samples.

Results

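The mitosis and G2/M genes are 41 genes whose products drive a cell into mitosis, build the spindle, separate the chromosomes and divide the cell. They were set as a list of gene names, and a gene was counted as measured where it was the only symbol of a probe set in the array annotation. By that rule 33 of the 41 were measured, among 8793 genes named on the array. The other 8 (*bub1*, *ube2c*, *pttg1*, *cenpa*, *cenpf*, *aurkb*, *tpx2* and *hmmr*) were not analysed here.

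GFP+ cells were sorted from the bodies of 13 adult zebrafish with acute lymphoblastic leukemia (ALL), and their RNA was measured on 1 microarray per fish. Bright and dim GFP+ cells were sorted together. The *hMYC-2* group held 6 arrays and the *hMYC-1* group held 4, all from the double transgenic line *rag2:hMYC;lck:eGFP*. In this line a zebrafish *rag2* promoter, active in immature lymphocytes, drives human *MYC*, and an *lck* promoter drives the green protein by which cells were sorted. The human protein is fused to a modified estrogen receptor, and no tamoxifen was given. The third group held 3 arrays of *hlk* ALL, another zebrafish model of T cell ALL (T-ALL), whose cells were sorted by the same fluorescence. The names *hMYC-2* and *hMYC-1* are not genotypes: the study split the ALL of 1 line by clustering these same arrays on the probe sets of highest variance. A test between both *hMYC* groups therefore describes that split. The paper proposes that *hMYC-1* samples held mostly T-ALL cells and some B cells. For *hMYC-2* samples it proposes the highest share of B cells or B cell ALL cells. Of the 33 genes, 2 (*nusap1* and *smc2*) were among the 1000 probe sets of highest variance on these arrays, a cut chosen here that holds 6.45% of all probe sets. The paper's text does not give the number of probe sets that the study clustered on.

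Entry into mitosis depends on cyclin-dependent kinase 1 and its B-type cyclins, helped by the Aurora A and Polo-like kinases. The spindle assembly checkpoint holds the anaphase promoting complex inactive until every kinetochore is attached, and motors and bundling proteins then separate the chromosomes and guide the cleavage furrow. Transcripts of many of these genes accumulate in G2 and fall after division, so in a mixed population their level is often read as a measure of dividing cells. In bulk samples such as these, fewer cells of a type and less RNA per cell cannot be told apart.

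Values are log2 signals, and a level at or under 5.68, the highest reading of array controls that match no zebrafish transcript, was counted as within background. Of the 33 genes, 18 were above that level on all 13 arrays, 13 on some of them, and 2 (*bub1bb* and *prc1a*) on none. The arrays had medians between 4.98 and 5.10. The replicate that stood apart was *hlk* replicate 1, whose *gapdh* control read 4.69 higher at its 3′ than at its 5′ probe set, against 1.09 to 2.49 on the other 12 arrays. All 10 measured B lineage markers passed the test as higher than in *hlk*, in either *hMYC* group, with summed levels of 14.25 to 14.50 in *hMYC-2*, 13.60 to 14.50 in *hMYC-1* and 10.58 to 11.30 in *hlk*. T lineage markers, of which 7 were measured, summed to 8.42 to 9.34 in *hMYC-2*, 9.35 to 10.96 in *hMYC-1* and 12.31 to 12.77 in *hlk*. Of these 7, 4 passed as lower and 0 as higher than in *hlk* in *hMYC-2*, and 3 as lower and 1 as higher in *hMYC-1*. Of all probe sets, 11% passed as higher and 13.7% as lower than in *hlk* in *hMYC-2*, and 9.13% and 9.63% in *hMYC-1*. In either group 3 of the 7 differences from *hlk* were above 0, and *cd28* and *notch1a* were within background on all arrays. Of the measured markers of other cells, 1 of 8 erythroid, 3 of 7 neutrophil, 2 of 5 macrophage, 0 of 5 thrombocyte, 1 of 2 NK cell, 3 of 10 muscle, 4 of 8 skin, 2 of 9 hepatocyte, 6 of 9 pancreas and intestine, 2 of 11 germ cell, and 0 of 5 fibroblast and endothelial markers were above background on any array. The erythroid genes *hbba2* and *alas2*, the neutrophil gene *lyz* and the fibroblast genes *col1a1a* and *col1a2* were within background on all arrays. Other markers were not: macrophage markers summed to 10.07 to 10.42 in *hMYC-2*, 9.98 to 10.41 in *hMYC-1* and 10.64 to 10.88 in *hlk*. Of the 7 neutrophil markers, 1 passed as higher and 1 as lower than in *hlk* in either *hMYC* group (14.3% each way, against the shares above). Their largest differences from *hlk* were 2.51 in *hMYC-2* and 2.43 in *hMYC-1*.

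Mitotic genes read lower in *hMYC-2* ALL than in *hMYC-1* ALL almost without exception, but no single gene passed the test. The difference was below 0 for 32 of 33 genes, against 60.4% of all 15502 probe sets (39.5% were above 0), with a median of −0.82 over the 33 genes and −0.04 over all probe sets. By limma, with p adjusted over all probe sets by Benjamini and Hochberg's method, 0 genes were higher and 0 lower, where 0.419% of all probe sets were higher and 0.116% lower. At an unadjusted p under 0.05, 25 of the 33 were lower and 0 higher, against 6.72% lower and 4.56% higher among all probe sets. Most of the 33 genes rose and fell together. Pearson's r of a gene with the mean of the other 32 had a median of 0.93 over the 13 arrays. Counts of these genes are therefore not counts of independent results. The arrays of both groups did not overlap for 9 genes, all lower in *hMYC-2*, where 2.3% of all probe sets were lower and 1.38% higher with no overlap: *ccnb1*, *ccnb3*, *aurka*, *plk1*, *cdc20*, *birc5a*, *kif11*, *kpna2* and *racgap1*. A fit of both *hMYC* groups alone, without the *hlk* arrays, called 4 genes lower (*cdc20*, *kif11*, *kpna2* and *racgap1*), where 0.245% of all probe sets were lower and 0.464% higher.

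Against *hlk* the lean of the 33 genes was less uniform than between both *hMYC* groups. Still, the only genes of the 33 that passed limma's test in the fit of all arrays did so between *hMYC-1* and *hlk*. In *hMYC-1* ALL 2 genes (6.06% of the 33) were higher than in *hlk*, *cdc20* and *aurka*, and 0 were lower. Of all probe sets 9.13% were higher and 9.63% lower, so in this fit the list's shares were below those of all probe sets. For the higher genes other fits gave the reverse. Without *hlk* replicate 3, 12 of the 33 were higher, against 7.77% of all probe sets. With arrays shifted to equal housekeeping genes 9 were, against 12.1%. The median difference was 0.39 over the 33 genes and −0.03 over all probe sets, with 28 of 33 genes above 0 and 5 below, against 45.6% and 54.4% of all probe sets. In *hMYC-2* 0 genes differed from *hlk* in limma's test, where 11% of all probe sets were higher and 13.7% lower; 24 of 33 differences were below 0 and 9 above, against 60.6% and 39.3% of all probe sets, with a median of −0.23 over the 33 genes and −0.07 over all probe sets. At an unadjusted p under 0.05, 9 genes were higher and 0 lower in *hMYC-1*, against 14.1% and 16.1% of all probe sets. In *hMYC-2* 0 were higher and 2 lower at that level, against 15.1% and 21.5%. With the replicate number as a block, 8 of the 33 genes were higher in *hMYC-1* than in *hlk*, where 6.93% of all probe sets were higher. In that fit 1 gene, *ccnb2*, was lower in *hMYC-2* than in *hlk*, where 7.91% of all probe sets were lower. Both comparisons use the same 3 *hlk* arrays.

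**Figure D1:**
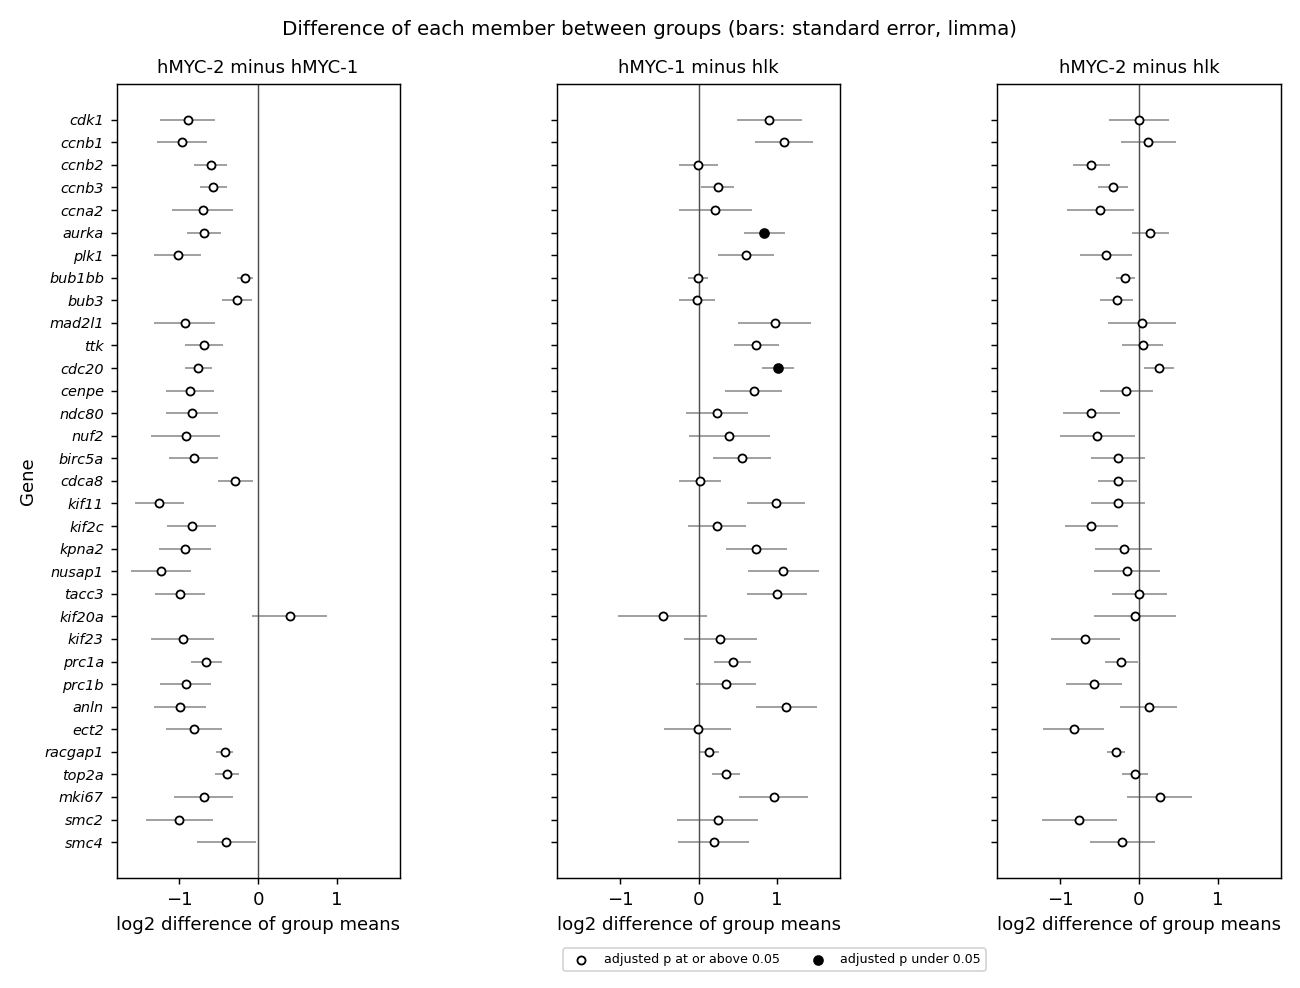
Difference of each of the 33 genes between group means (x axis, log2, bars are limma's standard error), with genes on the y axis ordered by role, for *hMYC-2* minus *hMYC-1*, *hMYC-1* minus *hlk* and *hMYC-2* minus *hlk*. In the left panel 32 of 33 points lie below 0 and none is filled; the filled points, with an adjusted p under 0.05, are *cdc20* and *aurka* in the middle panel.

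Among the kinases and cyclins of mitotic entry, all 7 read lower in *hMYC-2* than in *hMYC-1*, by 0.57 (*ccnb3*) to 1.02 (*plk1*). *ccnb1* encodes cyclin B1, the main partner of the kinase Cdk1. It had a lowest, median and highest value of 7.09, 7.52 and 7.74 on the *hMYC-2* arrays, values of 8.74, 7.79, 8.84 and 8.31 on the *hMYC-1* arrays, and 7.54, 6.27 and 8.19 on the *hlk* arrays. Every *hMYC-1* array lay above every *hMYC-2* array, while the *hlk* arrays reached from below the *hMYC-2* arrays into the range of *hMYC-1*. *ccnb1* differed by −0.97 between *hMYC-2* and *hMYC-1* (standard error, SE, 0.32, adjusted p = 0.271 in limma) and by 1.09 between *hMYC-1* and *hlk* (SE 0.37, adjusted p = 0.0625). *aurka*, the Aurora A kinase gene that acts at the spindle poles, read 6.15, 6.42 and 6.91 (lowest, median and highest) in *hMYC-2*, 7.28, 6.96, 7.20 and 7.14 in *hMYC-1*, and 6.17, 5.73 and 7.02 in *hlk*. Its *hMYC-1* values lay close together, and 1 *hlk* array, replicate 3, fell among them. *aurka* was higher in *hMYC-1* than in *hlk* by 0.84 (SE 0.26, adjusted p = 0.0380 in limma), and this call was lost when any of *hMYC-1* replicates 1, 3 and 4 or *hlk* replicates 1 and 2 was left out (adjusted p = 0.0740 to 0.151) and in a fit of those 2 groups alone (adjusted p = 0.111). *cdk1*, the kinase of mitotic entry itself, averaged 7.87 ± 0.43 in *hMYC-2*, 8.76 ± 0.49 in *hMYC-1* and 7.86 ± 0.99 in *hlk* (mean ± S.D., n = 6, 4 and 3).

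*ccnb2*, another B-type cyclin gene, sat lowest of the entry genes in *hMYC-2* relative to *hlk*. It was above background on 0 of 6 *hMYC-2*, 2 of 4 *hMYC-1* and 1 of 3 *hlk* arrays, with means of 4.94 ± 0.30 in *hMYC-2*, 5.54 ± 0.34 in *hMYC-1* and 5.54 ± 0.50 in *hlk*. The *ccnb2* difference of −0.61 between *hMYC-2* and *hlk* had the smallest adjusted p of the 33 genes in that comparison (SE 0.23, adjusted p = 0.0793 in limma). *ccna2*, the cyclin A gene active from S phase to early mitosis, differed by −0.71 between *hMYC-2* and *hMYC-1* (SE 0.39).

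The spindle assembly checkpoint was measured through 4 genes. *mad2l1* encodes Mad2, which is made at unattached kinetochores into an inhibitor of anaphase. It read 7.22, 7.70 and 8.44 (lowest, median and highest) in *hMYC-2*, 8.89, 8.17, 9.17 and 8.89 in *hMYC-1*, and 8.16, 6.47 and 8.80 in *hlk*. *hMYC-1* replicate 2 lay within the *hMYC-2* range and *hlk* replicate 2 below all other arrays. The differences were −0.94 between *hMYC-2* and *hMYC-1* (SE 0.39, adjusted p = 0.397 in limma) and 0.97 between *hMYC-1* and *hlk* (SE 0.46, adjusted p = 0.182). *ttk*, the checkpoint kinase gene, averaged 6.79 ± 0.34 in *hMYC-2*, 7.48 ± 0.31 in *hMYC-1* and 6.74 ± 0.64 in *hlk*. *bub3*, whose product recruits checkpoint proteins to the kinetochore, averaged 8.34 ± 0.24 in *hMYC-2*, 8.61 ± 0.08 in *hMYC-1* and 8.63 ± 0.62 in *hlk*. A second *bub3* probe set, of lower mean and above background on 12 arrays, differed by 0.43 between *hMYC-1* and *hlk* and by 0.24 between *hMYC-2* and *hlk*. The brighter probe set gave −0.01 and −0.285 there, and the correlation between both over the 13 arrays was 0.539. *bub1bb* stayed within background on every array.

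*cdc20* encodes the activator of the anaphase promoting complex, the target of the checkpoint. It read 6.08, 6.18 and 6.45 (lowest, median and highest) in *hMYC-2*, 7.25, 6.54, 7.15 and 7.0 in *hMYC-1*, and 6.06, 5.48 and 6.38 in *hlk*. The lowest *hMYC-1* array was above the highest array of either other group, which made *cdc20* the 1 gene of the 33 with no overlap between *hMYC-1* and *hlk*; 11.3% of all probe sets were higher in *hMYC-1* with no overlap. *cdc20* was higher in *hMYC-1* than in *hlk* by 1.01, a 2.02-fold difference (SE 0.21, adjusted p = 0.00395 in limma), and this call held with each of the arrays left out in turn. Its local false discovery rate in a shrinkage t test, the kind of test that the study used, was 0.178. Between *hMYC-2* and *hMYC-1* it differed by −0.76 (SE 0.17), with the smallest adjusted p of the 33 genes in that comparison, 0.106.

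All 3 measured kinetochore genes read lower in *hMYC-2* than in *hMYC-1*. *nuf2* encodes a subunit of the Ndc80 complex, which grips spindle microtubules. It read 4.79, 5.03 and 6.05 (lowest, median and highest) in *hMYC-2*, 6.37, 5.28, 6.51 and 6.45 in *hMYC-1*, and 5.91, 4.42 and 6.96 in *hlk*. The *hlk* arrays held both the lowest and the highest value of the 13, and the gene was above background on 1 of 6 *hMYC-2*, 3 of 4 *hMYC-1* and 2 of 3 *hlk* arrays. *nuf2* differed by −0.92 between *hMYC-2* and *hMYC-1* (SE 0.44, adjusted p = 0.456 in limma). *ndc80*, its partner subunit, differed by −0.84, and *cenpe*, a kinetochore motor, by −0.86 in the same comparison.

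The chromosomal passenger complex, which corrects faulty attachments and later marks the midzone, was represented by *birc5a* and *cdca8*. *birc5a*, which encodes survivin, read 7.37, 7.79 and 8.31 (lowest, median and highest) in *hMYC-2*, 8.77, 8.37, 8.82 and 8.76 in *hMYC-1*, and 8.35, 7.01 and 9.03 in *hlk*. The *hMYC* groups did not overlap, and the *hlk* arrays reached below and above both. Its difference was −0.82 between *hMYC-2* and *hMYC-1* (SE 0.31, adjusted p = 0.356 in limma). *cdca8*, the borealin gene, differed by only −0.29 in that comparison (SE 0.22).

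By the brightest probe set of each gene, spindle motors and assembly factors gave the 2 largest differences between both *hMYC* groups, those of *kif11* and *nusap1*. *kif11* encodes the kinesin that pushes the spindle poles apart. It read 6.62, 6.99 and 7.50 (lowest, median and highest) in *hMYC-2*, 8.32, 7.75, 8.51 and 8.39 in *hMYC-1*, and 7.46, 6.17 and 8.13 in *hlk*. Every *hMYC-2* array was below every *hMYC-1* array, and the *hlk* arrays overlapped with both groups. *kif11* differed by −1.26 between *hMYC-2* and *hMYC-1* (SE 0.31, adjusted p = 0.131 in limma), which became 0.0184 in a fit of those 2 groups alone. *nusap1*, a microtubule bundling gene, differed by −1.23 (SE 0.38, adjusted p = 0.234 in limma). Its further probe sets, above background on 12 and 13 arrays, differed by −0.69 and −1.01. *tacc3*, a spindle microtubule stabilizer, and *kpna2*, an importin gene, differed by −0.99 and −0.93, and *kif2c*, a microtubule depolymerizing kinesin, by −0.84.

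Of the 7 midzone and cytokinesis genes, 6 were lower in mean in *hMYC-2* than in *hMYC-1*. *anln* encodes anillin, a scaffold of the contractile ring. It read 6.35, 6.70 and 7.45 (lowest, median and highest) in *hMYC-2*, 8.03, 7.05, 8.26 and 7.81 in *hMYC-1*, and 6.87, 5.69 and 7.45 in *hlk*. *hMYC-1* replicates 1, 3 and 4 were above all arrays of the other groups, and *hMYC-1* replicate 2 was not. The difference of 1.12 between *hMYC-1* and *hlk* was the largest of the 33 genes in that comparison (SE 0.39, adjusted p = 0.0675 in limma). A second *anln* probe set, above background on 1 array, gave 0.50 there. *ect2*, the exchange factor that activates RhoA at the cell equator, had the largest difference between *hMYC-2* and *hlk*, −0.83 (SE 0.39, adjusted p = 0.143). *hlk* replicate 3, at 7.19, was the highest of all arrays for *ect2*, against 5.45 and 4.91 on the other *hlk* arrays, and the gene was above background on 0 of 6 *hMYC-2*, 3 of 4 *hMYC-1* and 1 of 3 *hlk* arrays. *kif23* and *racgap1*, whose products form the centralspindlin complex, differed by −0.96 and −0.42 between *hMYC-2* and *hMYC-1*. A second *kif23* probe set, above background on 1 array, differed by −0.03. *racgap1* was above background on 0 of 6 *hMYC-2*, 3 of 4 *hMYC-1* and 1 of 3 *hlk* arrays.

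*kif20a*, a midzone kinesin gene, was the exception. It read 7.34, 7.75 and 8.28 (lowest, median and highest) in *hMYC-2*, 7.27, 7.14, 7.31 and 7.69 in *hMYC-1*, and 6.77, 9.82 and 6.84 in *hlk*. *hlk* replicate 2, the lowest *hlk* array for 30 of the 33 genes, was here the highest of all 13 arrays. A second probe set of *kif20a*, of lower mean, read 5.62, 5.11 and 6.11 on the same *hlk* arrays and differed by −0.51 between *hMYC-2* and *hMYC-1*, where the brighter probe set gave 0.40. The correlation between both probe sets over the 13 arrays was −0.66, so the array gives no single pattern for this gene.

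Among the genes of chromosome structure, *smc2* encodes a condensin subunit. It read 4.87, 5.34 and 6.75 (lowest, median and highest) in *hMYC-2*, 6.72, 5.76, 7.06 and 6.84 in *hMYC-1*, and 6.24, 5.53 and 7.29 in *hlk*. The groups overlapped, with *hMYC-2* replicates 3 and 5 among the *hMYC-1* arrays. *smc2* differed by −1.0 between *hMYC-2* and *hMYC-1* (SE 0.43, adjusted p = 0.412 in limma) and by −0.76 between *hMYC-2* and *hlk* (SE 0.47, adjusted p = 0.272). A second *smc2* probe set, within background on all arrays, gave −0.24 and 0.08. *mki67*, the gene of the proliferation marker Ki-67, averaged 8.50 ± 0.58 in *hMYC-2*, 9.19 ± 0.37 in *hMYC-1* and 8.23 ± 1.0 in *hlk*. Its probe set and that of *plk1* carry the same transcript cluster number in their names. *top2a*, the topoisomerase that untangles sister chromatids, was above background on 0 of 6 *hMYC-2*, 2 of 4 *hMYC-1* and 0 of 3 *hlk* arrays.

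**Figure D2:**
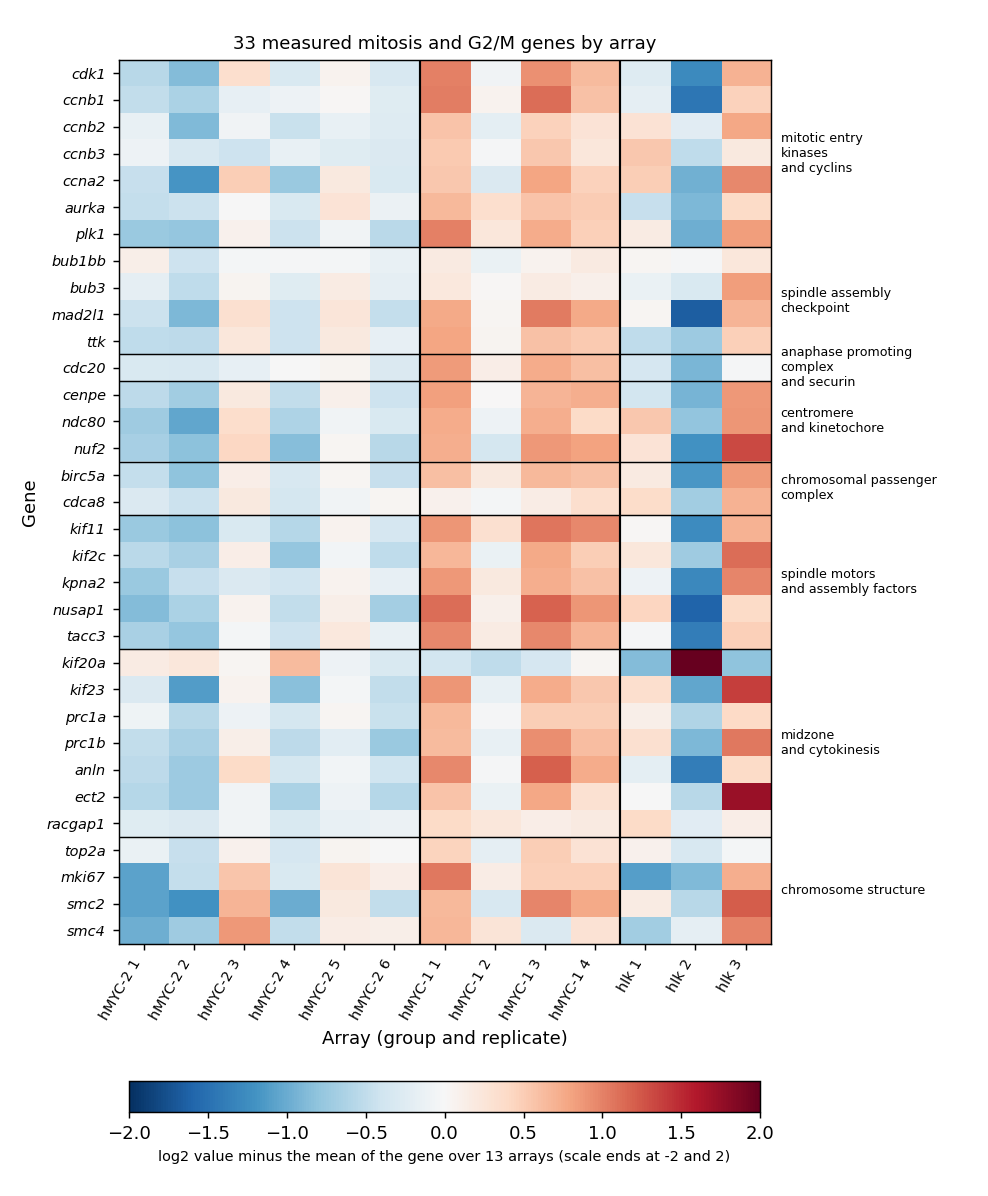
Log2 value of each of the 33 genes (rows, ordered by role) on each of the 13 arrays (columns, *hMYC-2*, *hMYC-1*, *hlk*), less the mean of that gene over the 13 arrays, with red above and blue below 0. Whole columns share a color: *hlk* replicate 2 is the lowest *hlk* array in 30 of 33 rows and *hMYC-1* replicate 2 the lowest *hMYC-1* array in 31, with *kif20a* the row that runs the other way.

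The spread between fish of 1 group was large for these genes. The median S.D. of the 33 genes was 0.34 in *hMYC-2*, 0.37 in *hMYC-1* and 0.92 in *hlk*, against 0.15, 0.16 and 0.21 over all probe sets. Over the 6478 probe sets with a mean above background it was 0.19, 0.20 and 0.29. For the 33 genes it was 0.16 in *hMYC-1* without *hMYC-1* replicate 2 and 0.47 in *hlk* without *hlk* replicate 2. The S.D. in *hlk* was the highest of the 3 groups for 31 of 33 genes, against 53.4% of all probe sets. The fit of all arrays takes 1 variance per gene over the 3 groups. For most of these genes its standard errors can therefore be too small against *hlk* and too large between both *hMYC* groups. The 3 *hlk* arrays spanned more than 1 log2 unit for 27 genes and more than 2 for 8.

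**Figure D3:**
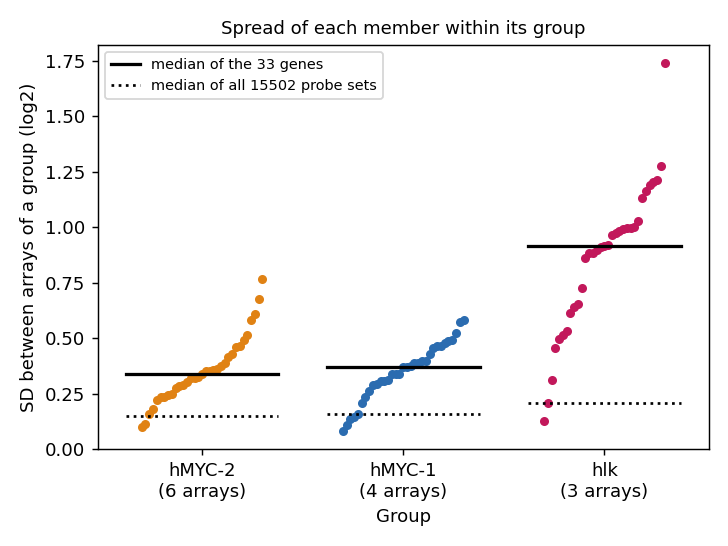
S.D. between the arrays of a group (y axis, log2) for each of the 33 genes, in *hMYC-2*, *hMYC-1* and *hlk* (x axis), with points sorted by value, a solid line at the median of the 33 genes and a dotted line at the median of all 15502 probe sets. The solid line stands at 0.92 in *hlk* and the dotted line at 0.21.

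This spread lay between whole arrays rather than between single genes. *hlk* replicate 2 was the lowest *hlk* array for 30 of 33 genes, against 29.3% of all probe sets, and *hlk* replicate 3 the highest for 28, against 26.9%. The median difference between those 2 arrays was 1.76 over the 33 genes and −0.03 over all probe sets. *hMYC-1* replicate 2 was the lowest *hMYC-1* array for 31 genes, against 24.9% of all probe sets. In *hMYC-2* replicate 2 was the lowest array for 22 genes, against 15.6%, and replicate 3 the highest for 21, against 11.4%. Each gene was also set against the mean of the other 32 over the 13 arrays. The median Pearson's r was 0.93, and 20 genes had an r above 0.9. The 13 points of each r share their arrays and their groups, so these values are a description.

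As the mean over the 33 genes of the log2 value less that gene's mean, the level was −0.48, −0.65, 0.12, −0.40, 0.04 and −0.31 on *hMYC-2* replicates 1 to 6. It was 0.67, −0.01, 0.64 and 0.50 on *hMYC-1* replicates 1 to 4, and −0.01, −0.77 and 0.66 on *hlk* replicates 1 to 3. The *hMYC-1* arrays other than replicate 2 were above all *hMYC-2* arrays, and the *hlk* arrays covered nearly the whole range. On the same scale T lineage markers averaged −0.71 in *hMYC-2*, −0.02 in *hMYC-1* and 1.44 in *hlk*. On *hMYC-1* replicates 1 to 4 the T lineage level was −0.74, −0.26, 0.80 and 0.12. The B lineage level was 1.31, 1.05, 0.08 and 0.52 there, beside the mitotic levels of 0.67, −0.01, 0.64 and 0.50. Skin, pancreas and intestine, and germ cell markers were highest on *hlk* replicate 1 (0.89, 0.86 and 0.68). They read 0.002, 0.08 and 0.12 on *hlk* replicate 2, and 0.29, −0.09 and −0.06 on *hlk* replicate 3. The mitotic genes read −0.01, −0.77 and 0.66 on these 3 arrays. The part of these markers and of RNA quality in the results was not tested.

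The calls against *hlk* depended on which *hlk* array was in the fit. Without *hlk* replicate 3, the array with the high values, 12 genes were higher in *hMYC-1* than in *hlk* (*cdk1*, *ccnb1*, *aurka*, *mad2l1*, *ttk*, *cdc20*, *cenpe*, *kif11*, *kpna2*, *tacc3*, *anln* and *mki67*), against 7.77% of all probe sets. Without *hlk* replicate 2, the array with the low values, 1 gene, *cdc20*, was higher in *hMYC-1*, against 8.04% of all probe sets, and the median difference was 0.12. The same omission gave 12 genes lower in *hMYC-2* than in *hlk* (*ccnb2*, *ccnb3*, *plk1*, *ndc80*, *birc5a*, *cdca8*, *kif11*, *kif2c*, *kif23*, *prc1b*, *ect2* and *racgap1*), against 13% of all probe sets, and 1 higher (*kif20a*), against 9.79%. Without *hlk* replicate 3 the median difference of *hMYC-2* and *hlk* was 0.07, of the opposite sign. The comparison of both *hMYC* groups does not use these arrays for its means. There, leaving out *hMYC-1* replicate 2 gave 1 gene lower (*cdc20*), against 0.0839% of all probe sets. It also gave 25 of 33 genes lower with no overlap in place of 9, against 4.7% of all probe sets in place of 2.3%. That array was the lowest of its group for 31 of the 33 genes, so less overlap without it was to be foreseen. Without *hMYC-1* replicate 1, 3 or 4 the number was 9, against 3.26% to 4.5% of all probe sets.

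**Figure D4:**
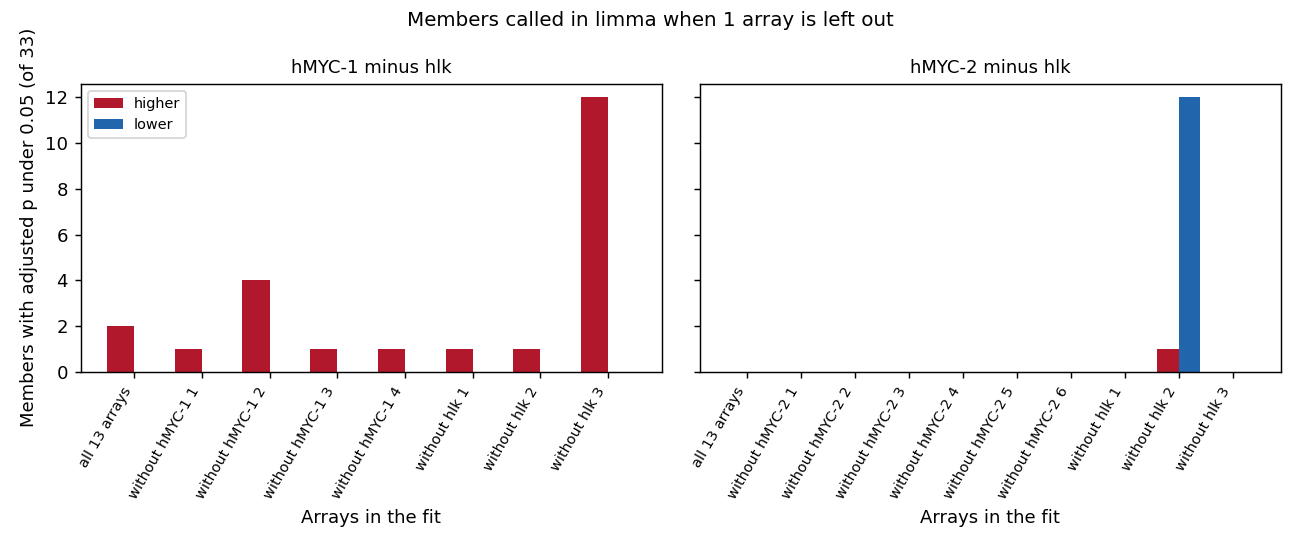
Number of the 33 genes (y axis) with an adjusted p under 0.05 in limma when all 13 arrays are used and when each array of the compared groups is left out in turn (x axis), for *hMYC-1* minus *hlk* and *hMYC-2* minus *hlk*, with red bars for higher and blue for lower. The tallest bars, 12 genes each, are without *hlk* replicate 3 in the left panel and without *hlk* replicate 2 in the right panel.

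Other mitosis genes, a list of 169 of which 106 were measured, leaned the same way between both *hMYC* groups. There 90 of 106 differences were below 0, against 60.4% of all probe sets, with a median of −0.32. In limma's test 0 were higher and 1 lower in *hMYC-2*, against 0.419% and 0.116% of all probe sets. That gene was *fzr1a*, a second activator of the anaphase promoting complex that acts late in mitosis and in G1, with means of 7.42 in *hMYC-2* and 7.90 in *hMYC-1* (difference −0.48, SE 0.08, adjusted p = 0.0163 in limma). Against *hlk*, 8 of the 106 were higher and 5 lower in *hMYC-1*, and 8 were higher and 10 lower in *hMYC-2*. These shares of the list, 7.55% and 4.72% in *hMYC-1* and 7.55% and 9.43% in *hMYC-2*, were below those of all probe sets, 9.13% and 9.63% in *hMYC-1* and 11% and 13.7% in *hMYC-2*. The 5 lower in *hMYC-1* were *cdkn3*, *ska1*, *stag1b*, *anapc1* and *stmn1b*. *lmnb1*, a nuclear lamina gene, averaged 9.49 in *hMYC-2*, 9.72 in *hMYC-1* and 7.62 in *hlk*. *cdkn3*, a phosphatase gene that acts on cyclin-dependent kinases, averaged 6.51 in *hMYC-2*, 6.92 in *hMYC-1* and 9.17 in *hlk*. *wee2*, whose family of kinases restrains Cdk1, averaged 5.92 in *hMYC-2*, 6.32 in *hMYC-1* and 3.86 in *hlk*, which is within background. *ska1*, whose product helps kinetochores hold microtubules, averaged 4.99 in *hMYC-2*, 5.76 in *hMYC-1* and 7.54 in *hlk*. All 4 passed the test against *hlk* in both *hMYC* groups.

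Genes of DNA replication and of the G1/S transition, 52 measured of 66 listed, did not show the lean of the mitotic genes between both *hMYC* groups. There 29 of 52 differences were below 0, against 60.4% of all probe sets, with a median of −0.02, and 0 passed in either direction. At limma's unadjusted p under 0.05, 2 were higher and 0 lower, against 4.56% and 6.72% of all probe sets. Whether the lists differ was not tested. Against *hlk*, *orc3*, an origin recognition gene, was higher in both *hMYC* groups, and *cdc45*, a subunit of the replicative helicase, was lower in both. The other calls were *orc1* and *mcm4*, lower in *hMYC-1*. These calls made up 1.92% of the list higher and 5.77% lower in *hMYC-1*, against 9.13% and 9.63% of all probe sets. In *hMYC-2* they made up 1.92% each way, against 11% and 13.7%, so all were below the shares of all probe sets. On the same scale as above, the replication genes read −0.19, −0.65, 0.53, −0.15, 0.11 and −0.10 on *hMYC-2* replicates 1 to 6. They read −0.16, −0.23, 0.03 and 0.04 on *hMYC-1* replicates 1 to 4, and 0.21, −0.11 and 0.67 on *hlk* replicates 1 to 3. In both this list and the mitotic genes, replicate 2 had the lowest level of the *hMYC-2* arrays and replicate 3 the highest.

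**Figure D5:**
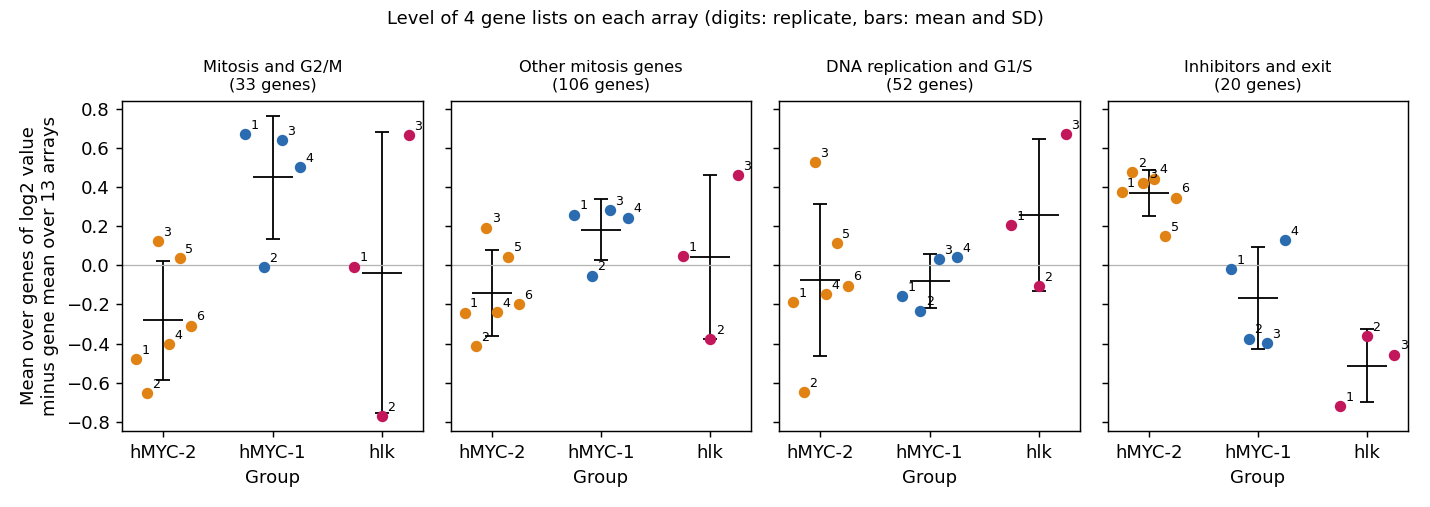
Level of 4 gene lists on each array (y axis, mean over genes of the log2 value less that gene's mean over the 13 arrays), by group (x axis, *hMYC-2*, *hMYC-1*, *hlk*), with replicate numbers beside the points and bars for the mean and S.D. of a group. The *hMYC-1* arrays lie between −0.01 and 0.67 for the mitotic genes and between −0.23 and 0.04 for the replication genes.

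Regulators of cell cycle transcription were measured through 24 of 31 listed genes. In *hMYC-1* 5 were higher and 4 lower than in *hlk* (20.8% and 16.7% of the list, against 9.13% and 9.63% of all probe sets). In *hMYC-2* 5 were higher and 5 lower (20.8% each, against 11% and 13.7%). Between both *hMYC* groups 1 was higher and 1 lower in *hMYC-2* (4.17% each, against 0.419% and 0.116%). *e2f4*, *e2f6*, *lin54*, *tfdp1b* and *tfdp2* were higher than in *hlk* in either *hMYC* group, *myca*, *e2f3*, *e2f5* and *tfdp1a* were lower in either, and *lin9* was lower in *hMYC-2*. The calls between the *hMYC* groups were *myca*, a zebrafish *myc* gene, higher by 1.83 (SE 0.36, adjusted p = 0.0480 in limma), and *e2f4*, an E2F gene that works with pocket proteins, lower by 0.40 (SE 0.08, adjusted p = 0.0451). *myca* read 6.58, 7.02, 7.18, 6.65, 6.68 and 6.81 in *hMYC-2*, and 5.06, 3.51, 5.29 and 6.11 in *hMYC-1*, where 3 of 4 arrays were within background. *foxm1*, which activates G2/M genes and was chosen here after its values were seen, read 5.72, 5.02, 6.55, 5.42, 6.17 and 5.39 in *hMYC-2*, 6.46, 5.96, 6.87 and 6.29 in *hMYC-1*, and 7.14, 5.33 and 7.17 in *hlk*. For *foxm1*, *hlk* replicate 2 was the lowest *hlk* array and *hMYC-1* replicate 2 the lowest *hMYC-1* array. Since the gene was picked with these values known, this is a description only. *foxm1* differed by −0.68 between *hMYC-2* and *hMYC-1* (SE 0.38, adjusted p = 0.528 in limma). Against *hlk* it differed by −0.15 in *hMYC-1* (SE 0.45, adjusted p = 0.865 in limma) and by −0.835 in *hMYC-2* (SE 0.42, adjusted p = 0.168).

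Inhibitors of the cell cycle and genes of cell cycle exit, 20 measured of 31 listed, leaned the other way. Between *hMYC-2* and *hMYC-1* 16 of 20 differences were above 0, against 39.5% of all probe sets, with a median of 0.53, and 0 passed in either direction. At limma's unadjusted p under 0.05, 6 were higher and 1 lower, against 4.56% and 6.72% of all probe sets. Against *hlk*, 8 were higher and 0 lower in *hMYC-2* (40% and 0% of the list, against 11% and 13.7% of all probe sets). In *hMYC-1* 3 were higher and 1 lower (15% and 5%, against 9.13% and 9.63%). *klf2a* and *klf2b*, genes of a factor that keeps T cells quiescent in the mouse, and *ccng1*, a cyclin G gene, were higher in both *hMYC* groups. *foxo3b*, a forkhead factor gene, was lower in *hMYC-1*. *btg2*, an antiproliferative gene, averaged 11.33 in *hMYC-2*, 9.30 in *hMYC-1* and 9.83 in *hlk*.

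The 33 genes lie on 18 chromosomes of the RefSeq zebrafish annotation GRCz12tu, and 1 pair, *ndc80* and *mki67*, are immediate neighbors. The order of the group means was *hMYC-1*, *hlk*, *hMYC-2* from high to low in 19 genes, against 12.4% of all probe sets, and *hMYC-1*, *hMYC-2*, *hlk* in 9, against 17.8%.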

How the data were processed

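RNA of sorted GFP+ cells was hybridized to the Affymetrix Zebrafish Genome Array, with 1 fish per array per the labels, which also gave the groups and replicate numbers. The deposited values are log2 signals of probe sets that the authors normalized over the whole dataset with justRMA (background correction, quantile normalization and summary of probes). Quantile normalization makes array distributions alike, so a shift of most genes would not be seen. Scanner files were not used here.

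Control probe sets (115) were set aside, and 15502 were tested with no filter. Of these, 10795 carry 1 symbol, 135 several and 4572 none; gene IDs matched for 10711 and changed 1 symbol. A gene with several probe sets (10 of the 33 genes) is represented by its brightest, by mean over all arrays. limma 3.58.1 in R 4.3.3 (lmFit, eBayes) was run as 1 fit over 13 arrays with a mean per group, 3 contrasts and a threshold of 0.05 on Benjamini-Hochberg adjusted p. Standard errors are limma's, from 1 variance per gene over the 3 groups, though the spread of the 33 genes was largest in *hlk*. Array number limits the precision, and p-values measure the spread between these fish only. Alternatives were another variance prior, array weights, 2 groups alone, a filter on low values, 2 other scalings, a shrinkage t with local false discovery rate written from its formulas, the mean over probe sets, a replicate block, and leaving out each array. The steps were tested on simulated data.

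The genes and lists were chosen with earlier results of these data known. Values of every array (lowest, median and highest for the 6 *hMYC-2* arrays) are given for the gene of each role with the largest group difference and for each gene past the threshold. Of the other lists, genes with the smallest adjusted p, and those that a count of 5 or fewer refers to, may be named. Same-numbered arrays of *hMYC-2* and *hlk* deviated together (correlations 0.323, 0.23 and 0.242), so the blocked count is given there; what the numbers stand for is not given in the sources used here.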

Additional observations from a re-analysis of the deposited data

Results flagged for a closer look

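In 68 checks, of the 33 genes and their mean level within the *hMYC-2* group of 6 and the *hMYC-1* group of 4 arrays, 2 gave a lowest array far from the others, where chance gives about 1 in 20 such groups. Both were *hMYC-1* replicate 2: *nuf2* read 5.28 there, with the next array at 6.37, and *birc5a* read 8.37, with the next at 8.76. For *racgap1*, every *hMYC-2* array was below and every *hMYC-1* array above the *hlk* mean of 5.61. The *hlk* arrays, at 5.28 to 5.90, overlapped with both groups, all 6 *hMYC-2* arrays were within background, and neither group's difference from *hlk* passed the test (−0.29 in *hMYC-2*, adjusted p = 0.0937 in limma, and 0.13 in *hMYC-1*, adjusted p = 0.536). The difference of −0.42 between *hMYC-2* and *hMYC-1* had limma's adjusted p = 0.138.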

How the results depend on the processing

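The count of genes higher in *hMYC-1* than in *hlk*, 2, was 1 with array weights and in a fit of those 2 groups alone, against 7.19% and 6.53% of all probe sets. It was 0 with the shrinkage t (4.4% of all probe sets). With the filter on low values it was 4 of 30 genes, where 17.9% of 7135 probe sets were higher. It was 9 with arrays shifted to equal *actb1*, *eef1a1l1* and *gapdh* (12.1%), and 1 to 12 with an array left out (7.6% to 9.62%). The shift moved the median of all probe sets in *hMYC-1* minus *hlk* to 0.19, against −0.03 as deposited. It takes the same value from every probe set of an array. The median of the 33 genes relative to that of all probe sets therefore cannot change. That relative median was 0.41 in *hMYC-1* minus *hlk*, −0.16 in *hMYC-2* minus *hlk* and −0.78 in *hMYC-2* minus *hMYC-1*. The shift gave 12.1% of probe sets higher and 4.05% lower in *hMYC-1* than in *hlk*, against 9.13% and 9.63%. The *gapdh* probe set used in it was within background on 11 arrays. Genes lower in *hMYC-2* than in *hlk* numbered 1 (*racgap1*) with a further quantile normalization, against 13.8% of all probe sets. With an array left out they numbered 0 to 12, against 11.7% to 13.5%, and higher ones 0 to 1, against 9.53% to 11.3%. Genes lower in *hMYC-2* than in *hMYC-1* numbered 3 with array weights (*cdc20*, *kif11*, *racgap1*), against 0.342% of all probe sets, and 4 with those 2 groups alone, against 0.245%. They numbered 3 with the shrinkage t (*kif11*, *kpna2*, *racgap1*), against 0.142%, and 1 with the shift (*cdc20*), against 0.0452%. With an array left out they numbered 0 to 1, against 0.0194% to 0.187%. The median S.D. in *hMYC-1* was 0.24 with the shift and 0.16 to 0.43 with an array left out, and that in *hlk* 0.47 to 1.27. The causes of these changes were not tested. None of the 9 single-gene differences followed through all alternatives changed sign. They were picked from these same data for their size in a role or for passing the test, which favors an unchanged sign. Of the differences of all 33 genes, 24 were below 0 in *hMYC-2* minus *hlk* and 15 to 30 with an array left out, 5 in *hMYC-1* minus *hlk* and 1 to 15 with an array left out, and 32 in *hMYC-2* minus *hMYC-1* with each array left out.

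With the replicate number as a block, 8 genes were higher in *hMYC-1* than in *hlk*, against 6.93% of all probe sets, and 1 was lower in *hMYC-2* than in *hlk*, against 7.91%, while 0 passed between both *hMYC* groups. Over all probe sets, correlations of same-numbered arrays were −0.15, 0.102 and −0.127 for *hMYC-1* with *hlk*. They were −0.321, 0.17, −0.164 and −0.0507 for *hMYC-2* with *hMYC-1*. Over the 33 genes they were −0.0359, 0.555 and 0.309 for *hMYC-1* with *hlk*, and −0.465, 0.441, 0.161 and −0.0966 for *hMYC-2* with *hMYC-1*. For *hMYC-2* with *hlk* they were 0.261, 0.514 and 0.57 over the 33 genes. Replicate 2 was the lowest array of its group for 31 genes in *hMYC-1*, 22 in *hMYC-2* and 30 in *hlk*. Whether same-numbered arrays share more than a number is not given in the sources used here.

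Precision is limited by 3 *hlk* arrays, by 13 genes above background on only some arrays and 2 on none, and by a grouping of the *hMYC* arrays made from the same arrays.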
